A study of Mus musculus with 6 samples.

Results

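Cholesterol synthesis and export were examined in RANKL-primed osteoclast precursors (OCPs) through 8 genes chosen by name among the 57180 genes of the count table, *Srebf2*, *Hmgcs1*, *Idi1*, *Fdps*, *Fdft1*, *Sqle*, *Insig1* and *Abca1*. All 8 had enough counts to be among the 13428 genes tested. None of them encodes a receptor that takes up cholesterol, and *Abca1* encodes an exporter, so they are described here as a regulator and its brake, 5 enzymes of synthesis and 1 efflux gene. The study compared OCPs from wildtype (WT) C57BL/6 mice with OCPs from mice that lack lincRNA-EPS (KO), a long noncoding RNA of macrophages, to ask how its loss affects osteoclast differentiation. Bone marrow-derived macrophages (BMDMs) of both genotypes received M-CSF, a macrophage growth factor, at 40 ng/ml for 24 h, followed by 48 h with 40 ng/ml RANKL, the cytokine that starts osteoclast differentiation. There were 3 libraries per genotype. RANKL was given to both groups, so the data hold no untreated cells. The study describes its replicates in vitro as biological, from separate mice or from independent cultures, and the labels do not say which holds for these libraries, so p-values measure the spread between libraries that may share a mouse. The labels give every library a batch name of its own, so no comparison within a batch could be made.

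Cells make cholesterol from acetyl-CoA through the mevalonate pathway, and side branches of the same pathway supply the prenyl groups that anchor small GTPases to membranes. The transcription factor SREBP2, encoded by *Srebf2*, is held in the endoplasmic reticulum by INSIG proteins when sterols are plentiful, and is carried to the Golgi by SCAP and cut there when sterols run low, after which it turns on nearly every enzyme of the pathway. Oxysterols act in the opposite direction through the nuclear receptors LXRα and LXRβ, which turn on the efflux pump ABCA1. In osteoclasts, farnesyl diphosphate synthase, the product of *Fdps*, is the enzyme that nitrogen-containing bisphosphonates block.

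The promoters of 4 members are shown because they carry the letters through which this control is usually described. The bases come from the RefSeq promoter set on GRCm38.p6, whose window is the 250 bases before a gene's annotated start, written 5′ to 3′ on the strand of the gene and without bases that GENCODE already places in a transcript. Of the 8 members, 5 had an entry. Capitals mark the sterol regulatory element-like word TCACNCCA in *Srebf2* and *Hmgcs1*, the CCAAT box (ATTGG on the opposite strand) in *Srebf2*, *Hmgcs1* and *Insig1*, and in *Abca1* a pair of the LXR kind, GGTNA and GGTCA with 5 bases between them, which reads on the opposite strand. All words were searched on both strands.
Srebf2, chr15:82147019-82147180, plus strand: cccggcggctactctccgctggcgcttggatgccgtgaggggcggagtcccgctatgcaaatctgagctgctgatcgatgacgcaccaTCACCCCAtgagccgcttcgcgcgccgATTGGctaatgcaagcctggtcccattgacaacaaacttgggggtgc
Hmgcs1, chr13:119690101-119690350, plus strand: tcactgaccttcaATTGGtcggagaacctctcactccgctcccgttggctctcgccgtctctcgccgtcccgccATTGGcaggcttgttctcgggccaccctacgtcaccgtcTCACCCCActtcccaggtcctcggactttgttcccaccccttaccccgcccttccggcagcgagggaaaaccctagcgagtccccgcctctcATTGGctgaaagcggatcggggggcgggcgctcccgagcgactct
Insig1, chr5:28071162-28071362, plus strand: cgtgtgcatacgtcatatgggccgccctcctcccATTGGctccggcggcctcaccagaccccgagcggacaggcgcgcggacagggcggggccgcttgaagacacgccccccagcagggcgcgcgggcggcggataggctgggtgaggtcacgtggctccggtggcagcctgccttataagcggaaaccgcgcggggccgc
Abca1, chr4:53159896-53160145, minus strand: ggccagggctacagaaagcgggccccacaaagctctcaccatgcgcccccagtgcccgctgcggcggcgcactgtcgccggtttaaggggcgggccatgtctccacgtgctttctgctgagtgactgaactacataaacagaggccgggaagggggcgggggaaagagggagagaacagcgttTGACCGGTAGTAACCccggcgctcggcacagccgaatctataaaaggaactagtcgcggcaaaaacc

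*Srebf2* and *Hmgcs1* hold the same 8 letters, TCACCCCA, which start 162 bases before the RefSeq start in *Srebf2* and 137 bases before it in *Hmgcs1*. The RefSeq start of *Srebf2* lies downstream of the GENCODE start, with 88 transcribed bases left out of the printed stretch. The word TCACNCCA occurs in 3.58% of the 27025 promoters of the set. CCAAT is far more common, at 34.5% of promoters, and occurs 3 times in *Hmgcs1*, 2 times in *Idi1*, both among bases of the window that GENCODE places in a transcript, and 1 time each in *Srebf2* and *Insig1*. The LXR-like pair of *Abca1* lies 67 to 53 bases before its start and occurs in 0.163% of promoters; its letters were written down after these promoters had been read. The matches describe the windows and are not evidence of binding in OCPs.

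The libraries held 17757351 to 19998611 counts, and the members 630 to 6437 counts each. *Ttc39aos1*, the gene of lincRNA-EPS, had 20, 37 and 41 counts in the WT libraries and 0 in each KO library, which allows at most 0.173 CPM (counts of a gene per 1000000 counts of its TMM-scaled library) for the shallowest of them. Its edgeR adjusted p was 0.120. With limits of an adjusted p under 0.01 and a fold change above 1.3, 1 gene passed in edgeR's quasi-likelihood test with Benjamini-Hochberg adjustment, *Dtx3l* (log2 fold change -2.25, adjusted p = 0.00102), against 126 of the 10356 genes to which DESeq2 gave an adjusted p. The libraries also differed in a way that follows base composition. The log2 fold change of a gene, KO over WT, had a correlation of -0.51 with the GC content of its transcript over 13176 genes, and the correlation between a library's own deviations and GC content was 0.22, 0.60 and 0.27 in WT replicates 1 to 3 and 0.075, -0.11 and -0.63 in KO replicates 1 to 3. WT replicate 2 and KO replicate 3 stood farthest apart, on opposite sides. The cause of this trend was not tested. All 3 WT libraries had a higher correlation than all 3 KO libraries, so the trend cannot be told apart from genotype. The values below were also computed after a correction of every library for GC content. This correction may also take out part of a genotype difference. KO replicate 2 held 2.71% of its counts in the ribosomal RNA gene *Rn18s-rs5*, against 0.202% to 0.575% elsewhere. The 12 markers of macrophages and osteoclast precursors were all detected and summed to 8286 to 9127 CPM in WT and 9473 to 10131 CPM in KO. Of these 12, the osteoclast genes *Dcstamp* (log2 fold change 0.84), *Ctsk* (0.77), *Calcr* (0.41) and *Acp5* (0.38) were higher at an unadjusted p under 0.05 in edgeR (13% of all genes). The macrophage genes *Adgre1* (-0.29) and *Itgam* (-0.25) were lower at that p (13.2% of all genes). After GC correction *Mmp9* (0.46) and *Ocstamp* (0.31) were also higher at that p and *Calcr* (0.31) no longer was. *Adgre1* (-0.36) and *Itgam* (-0.26) stayed lower. The part of these markers in the results below was not tested. The 11 neutrophil markers summed to 1298 to 1458 CPM in WT and 1717 to 2046 CPM in KO. Without GC correction, 6 of the 10 tested were higher and 2 lower at an unadjusted p under 0.05 in edgeR's quasi-likelihood test. The shares over all genes were 13% and 13.2%. The part of the neutrophil markers was not tested either. Markers of B cells, T cells, erythroid, stromal and dendritic cells summed to at most 19.6 CPM per list in any library. In bulk RNA, fewer cells of a type and less RNA per cell cannot be told apart.

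None of the 8 members passed these limits, against 0.00745% of all genes tested. At an unadjusted p under 0.05 in edgeR's quasi-likelihood test, *Idi1* was higher in KO and *Srebf2* and *Abca1* were lower, which is 3 of 8 members against 26.2% of all genes. The WT and KO libraries did not overlap for *Srebf2* and *Abca1*, or 2 of 8 members, against 35.7% of all genes. These shares lie near those of the whole table. After GC correction none of the 8 passed the limits (0.0223% of all genes) or an adjusted p under 0.05 (0.983%). *Srebf2* and *Abca1* were the 2 of 8 with an unadjusted p under 0.05 in edgeR after that correction (25.8% of all genes) and the 2 of 8 without overlap (32.2%). In DESeq2 none passed the limits (1.22% of the genes with an adjusted p), and 1, *Srebf2*, had an adjusted p under 0.05 (8.25%). With 3 libraries against 3, an exact permutation test of a single gene cannot go below p = 0.1.

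**Figure D1:**
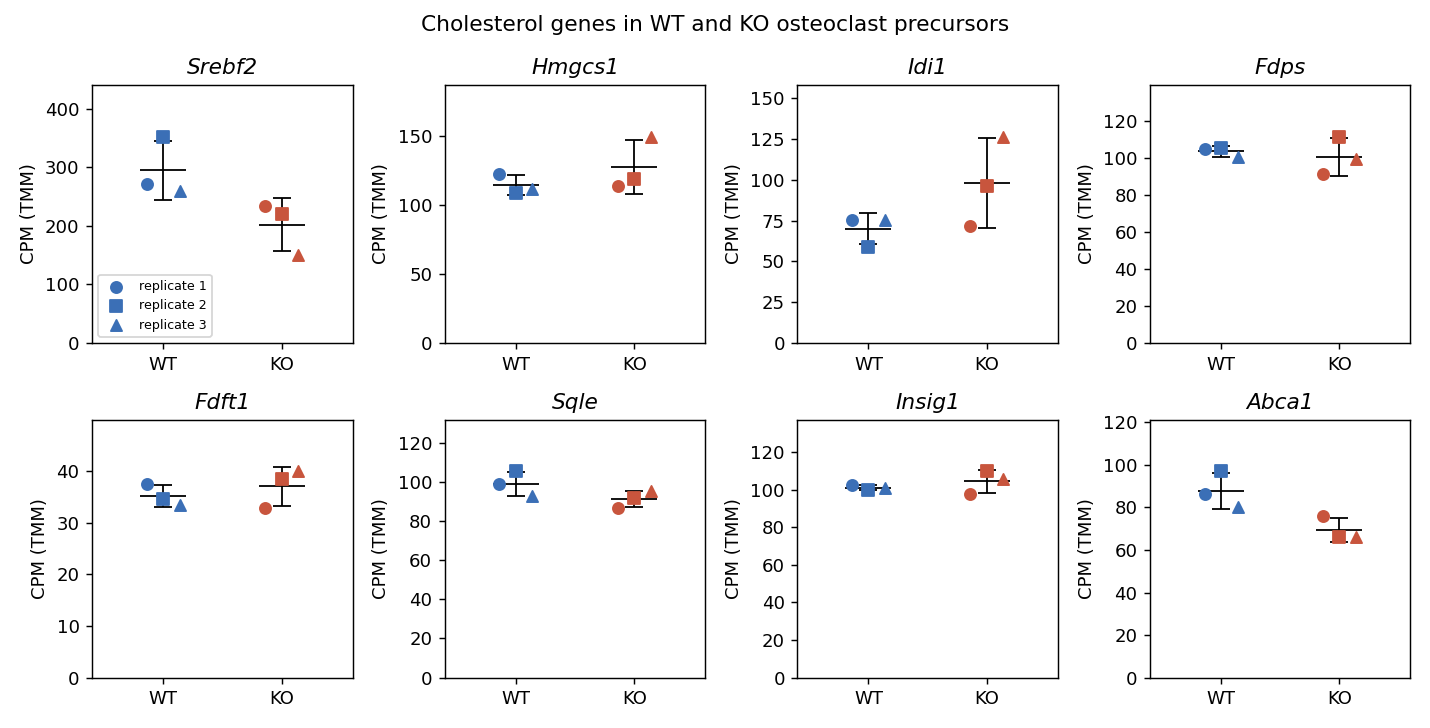
Level of each of the 8 members in each library, in CPM (TMM-scaled) on axes that start at 0; point shapes are replicate numbers, lines are genotype means and bars are SD (n = 3). All 3 KO points lie below all 3 WT points for Srebf2 and Abca1, and the genotypes overlap for the other 6 genes.

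*Srebf2* (ENSMUSG00000022463), which encodes the transcription factor that drives the pathway, was the most abundant member per kilobase of transcript in WT. It lies on chromosome 15 at 82147181 to 82205379 on the plus strand of GRCm38. Its level was 272, 352 and 260 CPM in WT replicates 1 to 3 and 234, 221 and 149.9 CPM in KO replicates 1 to 3. Every KO library was below every WT library, and KO replicate 3 was the lowest of the 6. The mean was 295 ± 50.1 CPM in WT and 202 ± 45.3 CPM in KO (SD, n = 3), a log2 fold change of -0.55 (SE 0.18, 95% interval -0.96 to -0.14), with an unadjusted p of 0.0145 and an adjusted p of 0.148 in edgeR's quasi-likelihood test. DESeq2 gave an adjusted p of 0.0464 for a log2 fold change of -0.55, under 0.05 but not under 0.01. Its transcript has 57.9% GC, the highest of the members, against a median of 49.2% over the genes tested. After GC correction the levels were 260, 290 and 246 CPM in WT and 230, 225 and 201 CPM in KO, still without overlap, and the log2 fold change was -0.28 (SE 0.083, edgeR adjusted p = 0.0950). Without KO replicate 3 the uncorrected value was -0.37, and without WT replicate 2 it was -0.40.

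*Mir33*, whose product lowers ABCA1 in mice, is encoded within the *Srebf2* gene at chromosome 15, 82198127 to 82198147 for the 5p arm, outside the exons of *Srebf2* in GENCODE. The arm is shown, from RefSeq, because its gene lies within that of a member, with capitals for the seed at bases 2 to 8. Its part in these data was not tested.
mmu-miR-33-5p: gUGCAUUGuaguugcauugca
The *Mir33* row of the table holds 0 counts in all 6 libraries, but an mRNA preparation is not made to capture mature microRNAs.

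*Insig1* (ENSMUSG00000045294), the brake that retains SCAP and SREBP2 in the endoplasmic reticulum and is itself a target of SREBP2, lies on chromosome 5 at 28071363 to 28078662, plus strand. It was measured at 102, 99.7 and 101 CPM in WT and 97.6, 110 and 106 CPM in KO. The KO libraries lay on both sides of the narrow WT range. The log2 fold change was 0.05 (SE 0.088, 95% interval -0.15 to 0.25, adjusted p = 0.745 in edgeR), and 0.01 after GC correction. The interval spans a change of -10.03% to 18.7%, so larger differences than these lie outside it.

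The 5 enzymes act in the order *Hmgcs1*, *Idi1*, *Fdps*, *Fdft1* and *Sqle*, from acetyl-CoA to squalene epoxide. *Hmgcs1* (ENSMUSG00000093930, chromosome 13, 119690379 to 119708260, plus strand) encodes the synthase at the entry to the mevalonate pathway. Its level was 123, 109 and 112 CPM in WT and 114, 119 and 149.96 CPM in KO. KO replicate 3 was the highest, and the other 2 KO libraries lay within the WT range. The mean was 114 ± 7.27 CPM in WT and 128 ± 19.5 CPM in KO (SD, n = 3). The log2 fold change was 0.16 (SE 0.12, adjusted p = 0.419 in edgeR), and it changed sign to -0.04 after GC correction, where KO replicate 3 was at 126 CPM against 125, 125 and 116 CPM in WT.

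*Idi1* (ENSMUSG00000058258, chromosome 13, 8885501 to 8892451, plus strand), which encodes the isomerase that makes dimethylallyl diphosphate, was the member with the largest positive difference. It was at 75.5, 59.1 and 75.5 CPM in WT and 71.8, 96.2 and 127 CPM in KO. KO replicates 2 and 3 were above all WT libraries, while KO replicate 1 was within the WT range. The mean was 70.0 ± 9.49 CPM in WT and 98.2 ± 27.5 CPM in KO (SD, n = 3), a log2 fold change of 0.49 (SE 0.20, 95% interval 0.04 to 0.93), with an unadjusted p of 0.0344 and an adjusted p of 0.167 in edgeR's quasi-likelihood test. Its transcript has the lowest GC content of the members, 41.9%. After GC correction the log2 fold change was 0.25 (SE 0.12, adjusted p = 0.222 in edgeR), with KO levels of 71.9, 94.5 and 103 CPM. Without KO replicate 3 the uncorrected value was 0.26, without WT replicate 2 it was 0.38, and without KO replicate 1 it was 0.67. The paralogs *Idi2* and *Idi2l* were at 0 counts in every library and 5 *Idi1* pseudogenes held 1 count in all, so few reads can have been divided between them and *Idi1*.

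*Fdps* (ENSMUSG00000059743, chromosome 3, 89093588 to 89101959, minus strand), the bisphosphonate target, makes farnesyl diphosphate, at which sterol synthesis and prenylation part. Its level was 105, 105 and 100.2 CPM in WT and 91.1, 111 and 99.2 CPM in KO. The KO libraries lay below, above and just under the WT range. The mean was 103 ± 2.80 CPM in WT and 101 ± 10.2 CPM in KO (SD, n = 3), a log2 fold change of -0.04 (SE 0.10, 95% interval -0.27 to 0.19, adjusted p = 0.813 in edgeR), and 0.0033 after GC correction. In percent the interval runs from -16.9% to 13.8%.

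*Fdft1* (ENSMUSG00000021273, chromosome 14, 63145150 to 63179578, minus strand) encodes squalene synthase, which commits farnesyl diphosphate to sterols. It was at 37.5, 34.6 and 33.5 CPM in WT and 32.8, 38.4 and 39.97 CPM in KO, and the genotypes overlapped. The log2 fold change was 0.07 (SE 0.11, adjusted p = 0.684 in edgeR) and 0.16 after GC correction (adjusted p = 0.389). *Sqle* (ENSMUSG00000022351, chromosome 15, 59315077 to 59331192, plus strand) encodes squalene epoxidase, which puts oxygen on squalene before it is closed into rings. It was at 98.7, 105 and 92.9 CPM in WT and 86.6, 91.8 and 95.1 CPM in KO. Only KO replicate 3 reached the WT range. The log2 fold change was -0.12 (SE 0.093, adjusted p = 0.422 in edgeR) and -0.14 after GC correction (adjusted p = 0.243).

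As a group, the 5 enzymes did not move 1 way. Their geometric mean level, set to the mean of the WT libraries, was 1.05, 0.971 and 0.984 in WT and 0.942, 1.09 and 1.20 in KO replicates 1 to 3, so that KO replicate 1 was the lowest library and KO replicate 3 the highest. Per kilobase of the longest transcript, the WT levels of the members were in the order *Srebf2* (58.1 CPM per kilobase), *Insig1* (37.5), *Fdps* (35.0), *Hmgcs1* (33.05), *Idi1* (23.1), *Sqle* (22.2), *Fdft1* (9.52) and *Abca1* (8.56). *Insig1*, *Fdps* and *Hmgcs1* sat close together, as did *Idi1* and *Sqle*, and as did *Fdft1* and *Abca1*; no test was run between genes.

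*Abca1* (ENSMUSG00000015243, chromosome 4, 53030787 to 53159895, minus strand), which encodes the pump that passes cholesterol to apolipoprotein A-I, was the other member with no overlap between genotypes. Its level was 86.4, 97.0 and 80.1 CPM in WT and 76.0, 66.1 and 66.0 CPM in KO. All KO libraries were below all WT libraries. The mean was 87.8 ± 8.54 CPM in WT and 69.4 ± 5.71 CPM in KO (SD, n = 3), a log2 fold change of -0.34 (SE 0.11, 95% interval -0.59 to -0.09), with an unadjusted p of 0.0125 and an adjusted p of 0.147 in edgeR's quasi-likelihood test. This difference was not reduced by GC correction, after which the levels were 87.9, 100.5 and 81.2 CPM in WT and 75.6, 65.7 and 63.1 CPM in KO and the log2 fold change was -0.40 (SE 0.099, edgeR adjusted p = 0.0719). DESeq2 gave an adjusted p of 0.0614 without and 0.0111 with GC correction. The *Abca1* transcript is the longest of the members at 10262 bases, and correcting for length as well as GC content left a log2 fold change of -0.21 (edgeR adjusted p = 0.119).

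**Figure D2:**
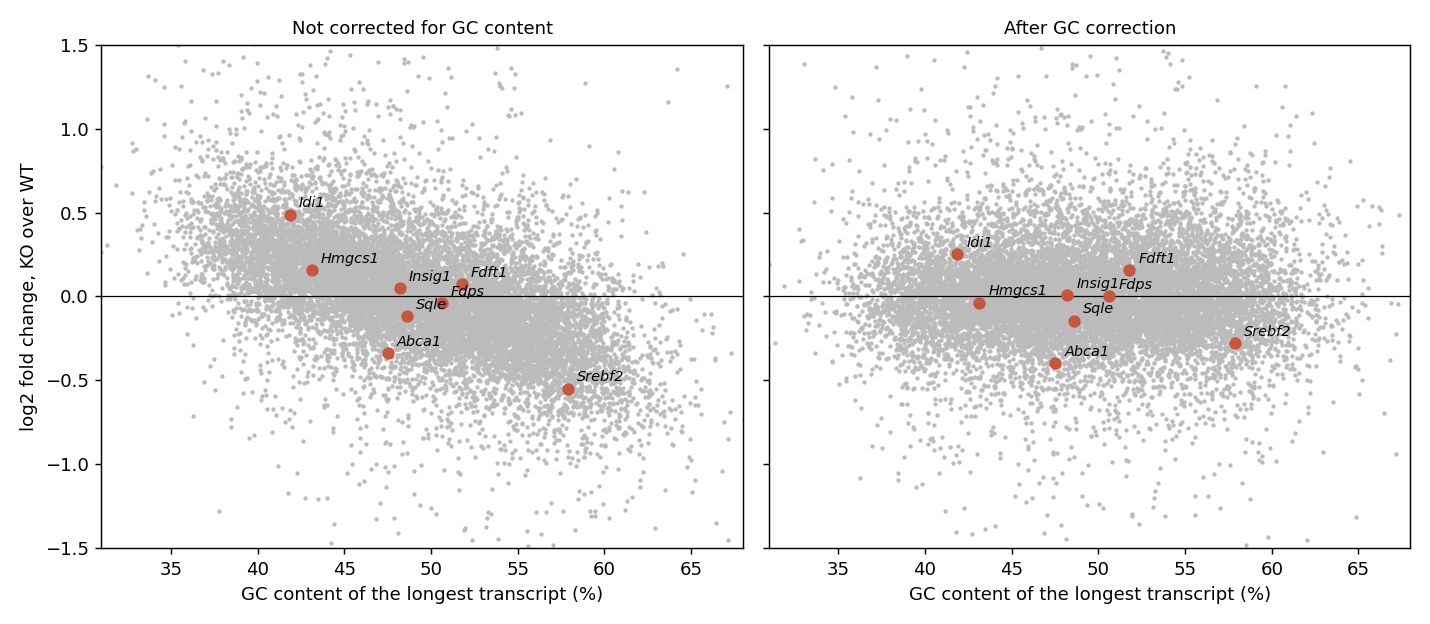
Log2 fold change of each tested gene, KO over WT, against the GC content of its longest transcript in percent, before (left) and after (right) GC correction; grey points are genes, red points the 8 members, and genes beyond the axis limits are not drawn. On the left the cloud slopes downward, with Idi1 at its low-GC end and Srebf2 at its high-GC end; on the right Abca1 at -0.40 and Srebf2 at -0.28 are the lowest members.

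The members' log2 fold changes tended to be lower at higher GC content, with *Idi1* and *Srebf2* at the ends. Over the 8 genes, the correlation of log2 fold change with GC content was -0.79, where *Abca1* was lower and *Fdft1* higher than their neighbours in GC content. Across the 6 libraries, *Srebf2* and *Idi1* ran in opposite directions (r = -0.95, and -0.81 after GC correction), and *Srebf2* and *Abca1* ran together (r = 0.90, and 0.97 after GC correction). *Hmgcs1* and *Idi1* had r = 0.90, which was 0.20 after GC correction, whereas *Fdps* and *Insig1* went from 0.68 to 0.97. These values describe 6 libraries that share the genotype difference and the GC trend. The 5 genes of the surrounding pathway lists whose log2 CPM was most like the mean of the 5 enzymes over the 6 libraries were *Cyp51* (r = 0.95, and 0.90 after GC correction), *Elovl5* (0.92 and 0.56), *Erg28* (0.91 and 0.84), *Nus1* (0.90 and 0.84) and *Me1* (0.89 and 0.77).

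**Figure D3:**
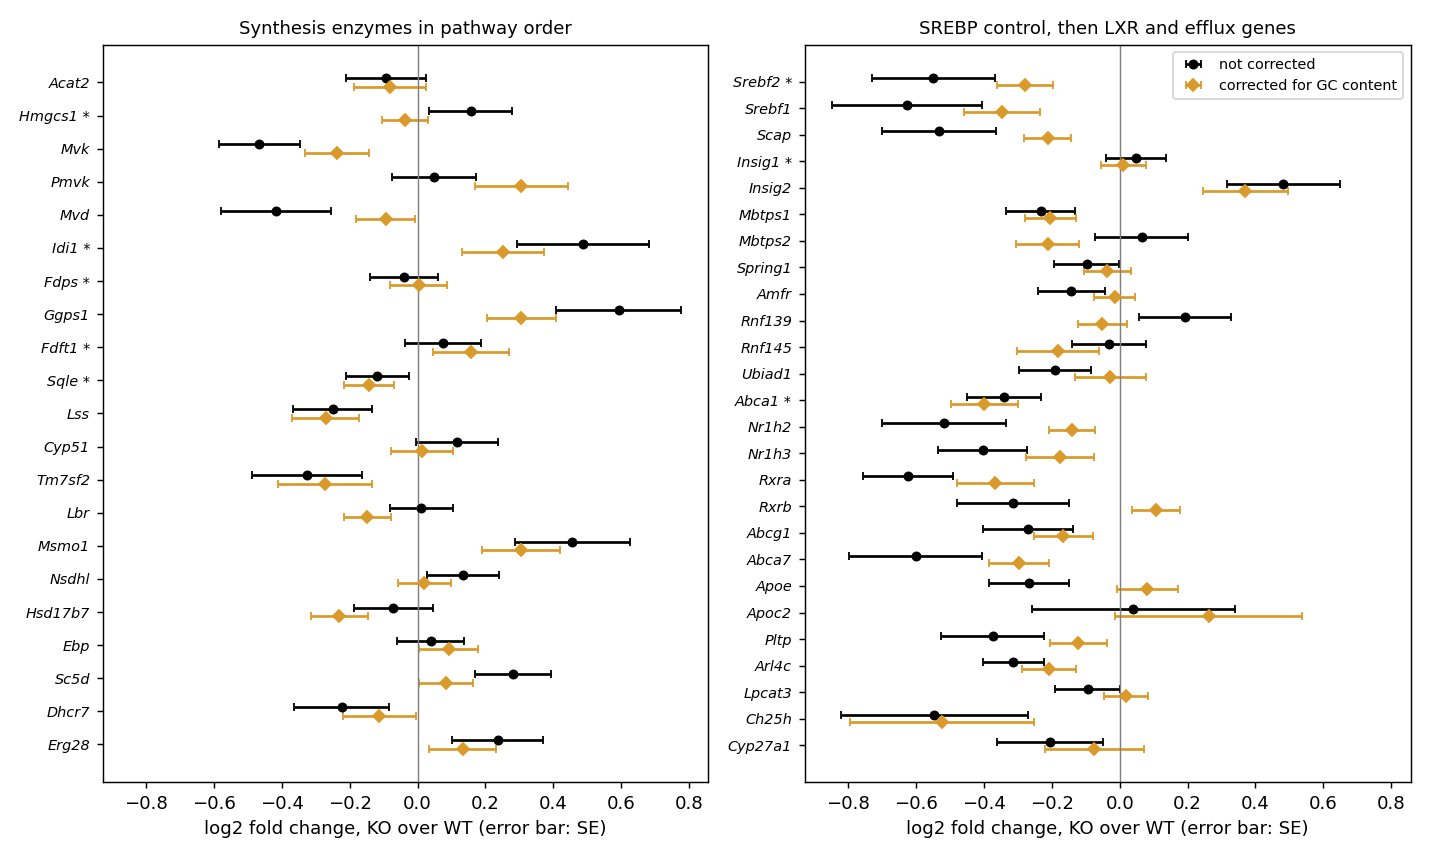
Log2 fold change with SE, KO over WT, of synthesis enzymes in pathway order (left) and of the SREBP control and the LXR and efflux genes (right), before (black circles) and after (orange diamonds) GC correction; asterisks mark members. The enzymes lie on both sides of 0, while 13 of the 14 LXR and efflux genes lie below 0 before correction and 10 of 14 after it.

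The wider synthesis pathway lay on both sides of 0. Of 23 enzymes, 4 were higher and 3 lower in KO at an unadjusted p under 0.05 in edgeR, beside 13% and 13.2% of all genes. None had an adjusted p under 0.05 in edgeR, while 3 did in DESeq2 (8.25% of the genes with an adjusted p). The median log2 fold change was 0.01, beside 0.0091 over all genes tested. After GC correction 2 were higher and 4 lower (12% and 13.8% of all genes), and the median was -0.04. *Ggps1*, which makes the geranylgeranyl diphosphate used on small GTPases, was at 14.7 ± 2.12 CPM in WT and 22.1 ± 5.06 CPM in KO (SD, n = 3; log2 fold change 0.59, and 0.31 after GC correction; edgeR adjusted p = 0.147). The methyl sterol oxidase gene *Msmo1* (0.46) and the desaturase gene *Sc5d* (0.28) were the others named as higher, and their log2 fold changes after GC correction were 0.30 for *Msmo1* and 0.08 for *Sc5d*. The kinase gene *Mvk* (-0.47) and the decarboxylase gene *Mvd* (-0.42) were lower at an unadjusted p under 0.05, and after GC correction they were at -0.24 and -0.09. Of the other named steps, *Pmvk* acts between *Hmgcs1* and *Idi1* and had a log2 fold change of 0.05, and 0.31 after GC correction. *Lss*, *Cyp51* and *Dhcr7* act after *Sqle* and had -0.25, 0.12 and -0.22, and -0.27, 0.01 and -0.11 after GC correction. The edgeR adjusted p of these 4 genes was 0.201 or more before correction.

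Among the 12 genes of SREBP processing and control, 1 was higher and 4 were lower at an unadjusted p under 0.05 (13% and 13.2% of all genes), with a median log2 fold change of -0.12. After GC correction 1 was higher and 5 were lower (12% and 13.8% of all genes), and the median was also -0.12. *Scap*, the escort of SREBP, was at 56.6, 71.5 and 59.3 CPM in WT and 51.3, 45.3 and 33.0 CPM in KO, a log2 fold change of -0.53 that was -0.21 after GC correction. *Srebf1*, which encodes the related factor of fatty acid synthesis, was at 126, 165 and 116 CPM in WT and 104, 101 and 58.4 CPM in KO (-0.63, and -0.35 after GC correction). *Srebf1*, *Srebf2* and *Scap* thus had the same order of groups, without overlap, and transcripts of 57.9% to 59.1% GC. *Insig2*, the second INSIG gene, was the other way round, at 27.6, 22.4 and 27.6 CPM in WT and 30.4, 32.7 and 45.3 CPM in KO (0.48, and 0.37 after GC correction). For the SREBP proteases, the log2 fold change was -0.23 for *Mbtps1* and 0.07 for *Mbtps2*, and after GC correction -0.20 and -0.21. None of the 12 had an adjusted p under 0.05 in edgeR's quasi-likelihood test. In DESeq2 2 of the 12 did, *Srebf2* and *Scap* (adjusted p = 0.0461 for *Scap*), beside 8.25% of the genes with an adjusted p.

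In the list of sterol uptake and lysosomal release, 16 of 17 genes had enough counts to be tested, and 7 were lower and 0 higher at an unadjusted p under 0.05 (13.2% and 13% of all genes). After GC correction 10 were lower and 0 higher (13.8% and 12% of all genes), and the median log2 fold change was -0.24 before and after. The scavenger receptor gene *Scarb1* was at 123, 139 and 118 CPM in WT and 106, 102 and 82.8 CPM in KO (-0.39, and -0.42 after GC correction), and *Mylip*, which LXR turns on and whose product degrades lipoprotein receptors, at 28.6, 30.5 and 29.3 CPM in WT and 20.8, 22.9 and 22.1 CPM in KO (-0.42, and -0.41 after GC correction). *Lrp1*, a large endocytic receptor, had the largest difference, at 2887 ± 501 CPM in WT and 1486 ± 558 CPM in KO (SD, n = 3; log2 fold change -0.96, and -0.70 after GC correction). The edgeR adjusted p of *Lrp1* was 0.147, and DESeq2 gave 0.00597. *Vldlr* was at 4.40 CPM in WT and 4.10 CPM in KO.

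The LXR and efflux list, which holds *Abca1*, had 8 of 14 genes lower and 0 higher at an unadjusted p under 0.05 (13.2% and 13% of all genes), 11 of 14 with all KO libraries below all WT libraries (against 18.8% of all genes), and a median log2 fold change of -0.33. After GC correction 4 of 14 were lower at that p (13.8% of all genes), 6 of 14 had no overlap (17.4% of all genes), 4 of 14 had a log2 fold change above 0, and the median was -0.15. The GC content of the list is high, with a median of 56.7%. Both LXR genes were lower without overlap before correction: *Nr1h2* (LXRβ) at 75.5, 93.1 and 79.5 CPM in WT and 65.5, 66.8 and 41.0 CPM in KO (-0.52), and *Nr1h3* (LXRα) at 27.0, 24.5 and 24.5 CPM in WT and 21.5, 19.9 and 16.1 CPM in KO (-0.40). After GC correction these were -0.14 and -0.17, and the libraries of *Nr1h3* overlapped. Their partner *Rxra* was at 54.5, 62.7 and 51.4 CPM in WT and 42.5, 32.0 and 34.9 CPM in KO (-0.62, and -0.37 after GC correction; edgeR adjusted p = 0.147, DESeq2 adjusted p = 0.00477). The LXR target *Arl4c* (-0.31, and -0.21 after GC correction) and the efflux gene *Abcg1* (-0.27, and -0.17 after it) lay on the same side as *Abca1*.

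The branches beside sterols were counted in the same way, at an unadjusted p under 0.05, which 13% of all genes passed as higher and 13.2% as lower (12% and 13.8% after GC correction). Of 14 prenylation and other mevalonate branch genes, 3 were higher and 0 lower, *Pdss1* (0.58) and *Nus1* (0.37), which extend prenyl chains for ubiquinone and dolichol, and *Zmpste24* (0.29), which trims prenylated lamin A. After GC correction these log2 fold changes were 0.28, 0.15 and 0.03. The counts were then 2 of 14 higher, *Pdss1* and *Fnta* (0.18), and 0 lower. Of 14 fatty acid synthesis genes, 7 were lower and 0 higher, with a median log2 fold change of -0.28, and 8 were lower after GC correction with a median of -0.24. They included the acetyl-CoA carboxylase gene *Acaca* (83.7 ± 5.72 CPM in WT and 64.7 ± 7.0 CPM in KO, SD, n = 3; -0.37, and -0.38 after GC correction), *Fads2* (-0.48, and -0.32) and *Acss2* (-0.43, and -0.48), each with an edgeR adjusted p of 0.147. None of the 5 tested genes of cholesterol ester storage had an unadjusted p under 0.05 before GC correction, and 2 were lower after it. Of the 30 tested genes that the table assigns to the KEGG term cholesterol metabolism, 3 were higher and 11 lower (13% and 13.2% of all genes), and of the 25 under the Reactome term cholesterol biosynthesis, 4 were higher and 5 lower. The KEGG term terpenoid backbone biosynthesis had 6 higher and 2 lower of 20, and steroid biosynthesis had 2 higher and 1 lower of 16. After GC correction the counts were 2 higher and 13 lower for cholesterol metabolism, 2 and 6 for cholesterol biosynthesis, 4 and 1 for terpenoid backbone biosynthesis, and 1 and 5 for steroid biosynthesis, where the balance turned. No gene of these lists had an adjusted p under 0.05 in edgeR. In DESeq2 an adjusted p under 0.05 was reached by 3 uptake, 3 LXR and efflux, 1 prenylation, 3 fatty acid and 0 ester storage genes. The share over the genes with an adjusted p was 8.25%.

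**Figure D4:**
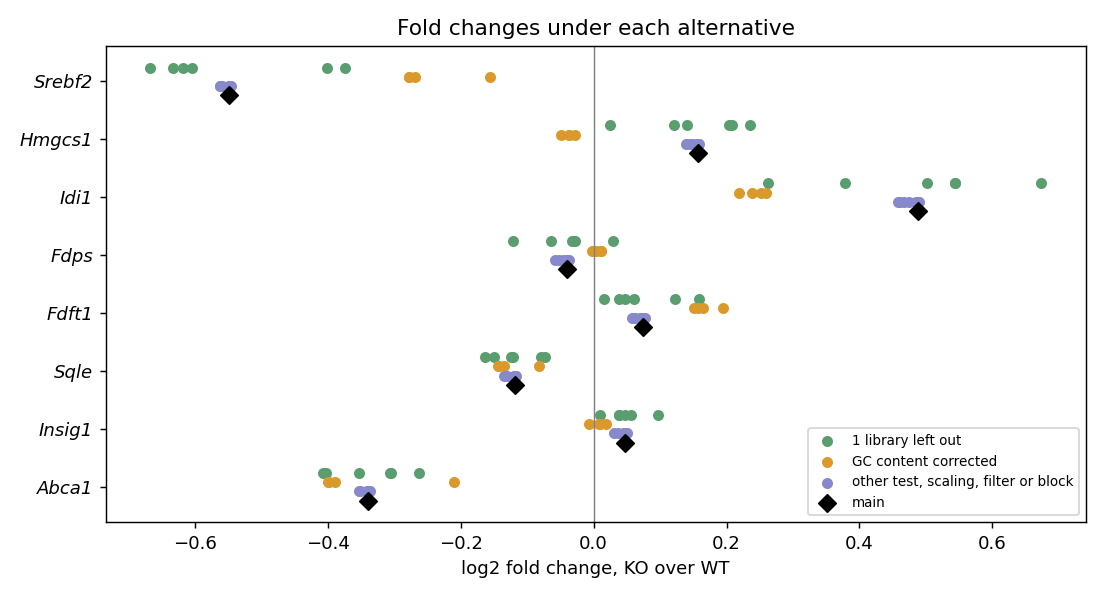
Log2 fold change of each member, KO over WT, in the main fit (black) and under each alternative: 1 library left out (green), GC content corrected (orange), and another test, scaling, filter or replicate block (purple). Srebf2, Sqle and Abca1 stay below 0 and Idi1 and Fdft1 above 0 throughout, while Hmgcs1, Fdps and Insig1 cross 0.

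Across the 18 alternatives, *Srebf2* and *Abca1* kept a negative and *Idi1* a positive log2 fold change. Leaving out 1 library moved *Srebf2* between -0.67 and -0.37, *Idi1* between 0.26 and 0.67 and *Abca1* between -0.41 and -0.26. The corrections for GC content, including the later one for GC content and length, brought *Srebf2* to between -0.28 and -0.16.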

How the data were processed

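RNA from 6 samples, 3 WT and 3 KO, was made into stranded mRNA libraries, and the authors deposited 1 table of estimated counts per gene, not normalized and in part not whole. The submitters' processing notes name fastp, HISAT2, StringTie, RSEM and the build GRCm39. Whether counting used the strand is not given in the sources used here. The authors' genotype means were not used. Positions, GC content and length of the longest transcript were taken from GENCODE M21 on GRCm38, which is not the build of the counts, for 51884 identifiers.

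The expected counts were rounded to whole numbers. *Hmgcs1* and *Fdft1* were not whole in 6 libraries and *Idi1* in 2, by at most 0.43. R 4.3.3 was used with edgeR 4.0.16, limma 3.58.1 and DESeq2 1.42.0. Genes were kept by filterByExpr, scaled by TMM and compared with edgeR's glmQLFit (legacy = FALSE) and glmQLFTest, two-sided, with Benjamini-Hochberg adjustment over all 13428 genes. The limits were an adjusted p under 0.01 and a fold change above 1.3. The figure legend of the study writes its fold limit on the log2 scale, and that stricter reading was added as an alternative after seeing the data. GC correction took a natural spline with 5 degrees of freedom per library as offsets. The fits were tested on simulated data in which the changes were larger than those of the members. That test does not show whether differences of the members' size would be found. The floor of 3 counts covers counting error only.

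The members and gene lists were chosen with earlier results of these data known. Besides the members, up to 3 higher and 3 lower genes of each list with the smallest unadjusted p under 0.05 were named, together with the enzymes between the members and the main control, uptake and LXR genes, some of which are not reported here. *Dtx3l* was named after its values were seen. The alternatives were other scalings, DESeq2, edgeR's legacy test, limma-voom, other filters and limits, the replicate number as a block, GC correction, and each library left out. Correction for length was added after seeing the data.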

Additional observations from a re-analysis of the deposited data

How the results depend on the processing

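No member passed the limits under any alternative that was run, with or without the replicate block. Over all genes, 0 were higher and 1 was lower past the limits, against 54 and 72 with DESeq2, 1 and 2 with GC correction in edgeR, 184 and 145 with DESeq2 and GC correction, and 2 and 2 with GC and length correction, which was added after seeing the data. With the fold limit of 1.3 read on the log2 scale, also added then, edgeR gave 0 higher and 1 lower and DESeq2 gave 1 higher and 2 lower. Leaving out 1 library gave 0 to 2 lower genes, with 0 without WT replicate 2, WT replicate 3 or KO replicate 2 and 2 without KO replicate 1. GC and length correction moved the median log2 fold change to -0.059 for synthesis, -0.042 for SREBP control, -0.15 for uptake, -0.15 for LXR and efflux and -0.16 for fatty acid synthesis. The LXR median was -0.15 with GC correction, -0.15 with GC correction and replicate block, and -0.14 with DESeq2 and GC correction, and the prenylation median was 0.0028 and 0.0022 with GC correction without and with the block. With 1 library left out, the median lay between -0.15 and -0.064 for SREBP control, between -0.092 and -0.031 for ester storage and between -0.043 (without KO replicate 3) and 0.10 (without KO replicate 1) for prenylation.

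Among single genes, *Hmgcs1* changed sign to -0.036 with GC correction, -0.037 with GC correction and block, -0.028 with DESeq2 and GC correction and -0.048 with GC and length correction. *Fdps* turned to 0.0033, 0.011 and 0.011 under the first, the third and the last of these, and *Insig1* to -0.0074 under the last. *Mbtps2* turned to -0.21, -0.22, -0.20 and -0.17 under the 4 corrections. With 1 library left out, the range crossed 0 for *Fdps* (-0.12 to 0.029), *Pmvk* (-0.029 to 0.12), *Mbtps2* (-0.033 to 0.18) and *Vldlr* (-0.30 to 0.20). The causes were not tested.

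Same-numbered WT and KO libraries had correlations of -0.32, 0.10 and 0.21 between their deviations from the genotype means. Libraries of unlike number had correlations from -0.37 to 0.39. These deviations also carry the GC trend, so they cannot decide whether the numbers pair the samples. With the replicate block, *Srebf2* was at -0.56 and *Abca1* at -0.34 on the log2 scale, with edgeR adjusted p of 0.0780 and 0.123.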
